A study of Macaca mulatta with 22 samples.

Results

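The comparison described here set ovulatory follicles of rhesus macaques (Macaca mulatta) taken 24 h after human chorionic gonadotropin (hCG) against follicles taken at 0 h. Its members were chosen by the sample titles: 4 arrays at 24 h and 6 arrays at 0 h, 10 of the 22 arrays of the study. The study followed the single dominant follicle of controlled cycles from before the ovulatory stimulus to rupture, with further groups at 12 h and, before and after rupture, at 36 h (4 arrays each). In every female a GnRH antagonist, Acyline, was given together with recombinant human FSH and recombinant human LH, 30 IU of each per injection, once serum estradiol had reached 100 to 120 pg/ml. At 24 h the follicles had received 1000 IU of recombinant hCG 24 h earlier, whereas the 0 h follicles came from females without hCG, operated on when it would have been given. By that schedule both groups were collected at the same hour of the day. Each array held total RNA of 1 whole follicle, frozen at once, so granulosa, theca, vascular and immune cells were measured together. In such bulk RNA, fewer cells of a type and less RNA per cell cannot be told apart. The titles call all samples ovulatory follicles, while the descriptions of the 24 h samples speak of the developing corpus luteum, and the titles were followed. Since no label states for each array that the follicles came from separate animals, the spread behind each p-value is that among these follicles.

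The hormone hCG acts on the luteinizing hormone receptor and takes the place of the mid-cycle LH surge. After the surge, granulosa and theca cells stop making the follicle's estrogens, leave the cell cycle and turn into luteal cells that make progesterone, while the follicle wall is remodelled by proteases and their inhibitors until it ruptures. Ovulation has many features of an acute inflammation, and local activation of cortisol is one of the processes known to counter it in the ovary.

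All levels are log2 intensities of Affymetrix rhesus macaque probe sets, so 1 unit stands for a 2-fold difference. Changes are given as 24 h minus 0 h with their standard error (SE), and the 4 values listed for 24 h are in the order of the replicate numbers in the titles. Calls were made in limma where the adjusted p was under 0.05, and the brightest probe set stands for its gene unless another is named. On the first principal component of the 10 arrays (33.0% of the variance) the 0 h follicles scored from -43.0 to -23.0 and the 24 h follicles from 35.0 to 58.4, so the groups did not overlap. The second (14.5%) set 0 h array 2 apart, at -59.8. Pairwise correlations between arrays were 0.890 to 0.913 within 0 h, 0.899 to 0.908 within 24 h and 0.884 to 0.905 between the groups. The difference between 3' and 5' control probe sets, a sign of RNA integrity, was 0.613 ± 0.070 (SD, n = 6) at 0 h and 0.599 ± 0.047 (SD, n = 4) at 24 h.

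Of 52766 probe sets, 1771 (3.36%) were called at 24 h against 0 h. Of these, 878 (1.66%) were higher and 893 (1.69%) lower, and 8292 had an unadjusted p under 0.05. Changes of at least 2-fold made up 732 of the calls (1.39% of all probe sets), with 393 higher (0.745%) and 339 lower (0.642%). The groups did not overlap, so that every follicle at 24 h was above or below every follicle at 0 h, for 3814 probe sets (7.23%): 1916 higher (3.63%) and 1898 lower (3.6%). Of these 3814, 1589 were called, out of 1771 calls in all. Groups that were apart are thus common among called genes and no separate support for them. For the called probe sets the median size of the change was 0.90 with a median SE of 0.19, and for all probe sets the median change was -0.004. The count fell most without 24 h array 1, to 1012 probe sets, and without 24 h array 4, to 959. Counted by the brightest probe set of each of 14132 named genes, 406 (2.87%) rose and 370 (2.62%) fell, and the counts of the gene lists below can be read against these shares. The share depends on level: of all probe sets above the median level 6.1% were called in either direction, and of the rest 0.614%. The comparison of 12 h with 0 h, fitted in the same way, called 4922 probe sets (9.33%), of which 4.28% were higher and 5.05% lower as shares of all probe sets. That of 24 h with 12 h called 3628 (6.88%), 3.67% higher and 3.2% lower, and that of unruptured 36 h follicles with 24 h only 2 (0.00379%), with 0 higher. These comparisons share arrays with the one described here, so their values are given side by side and not as separate evidence.

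**Figure D1:**
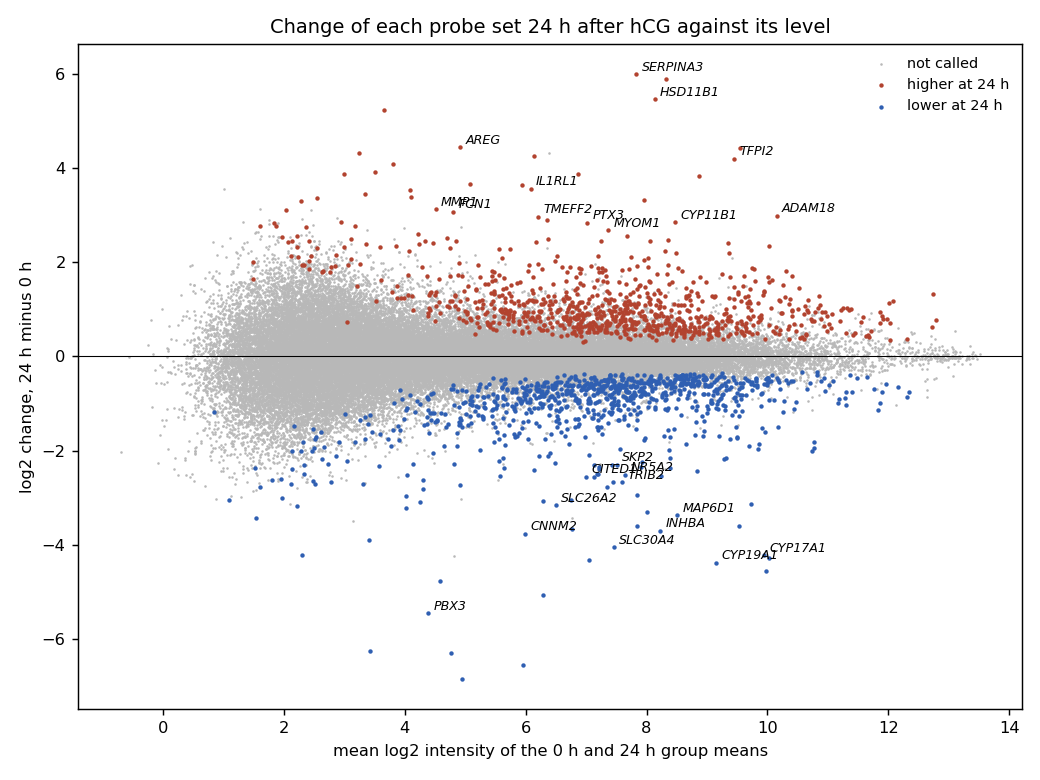
Change at 24 h (24 h minus 0 h, log2 units) of each of 52766 probe sets against its mean log2 intensity in both groups. Red points are the 878 called higher, blue points the 893 called lower and grey points the rest; labelled genes are the named largest changes, from SERPINA3 at the top (5.99) to PBX3 (-5.46), and the scatter of uncalled probe sets widens below a log2 intensity of about 4.

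The named genes with the largest rises encode a protease inhibitor, the enzyme that activates cortisol, an EGF-like ligand and a second protease inhibitor. SERPINA3, which encodes the inhibitor alpha-1-antichymotrypsin, lay between 4.90 and 6.23 at 0 h (median 5.27) and at 10.82, 11.10, 11.17 and 11.96 at 24 h by its brightest probe set. It rose by 5.89 ± 0.32 (SE, adjusted p = 1.42e-08), and a dimmer probe set rose by 5.99. The other 3 of its 5 probe sets were not called. HSD11B1 encodes the enzyme that turns inactive cortisone into cortisol. Its level was between 5.15 and 6.05 at 0 h (median 5.28) and 10.73, 11.39, 10.65 and 10.67 at 24 h, and it rose by 5.46 ± 0.53 (SE, adjusted p = 1.23e-05), which is 43.9-fold. TFPI2, a Kunitz-type inhibitor of plasmin and related proteases, was between 6.66 and 8.37 at 0 h (median 7.21) and at 10.99, 11.51, 11.58 and 12.11 at 24 h. It rose by 4.19 ± 0.34 (SE, adjusted p = 1.7e-06) by this probe set, and 3 of its 5 probe sets rose, while 1 was called lower, with a change of -1.40. The named largest changes were chosen among probe sets whose groups did not overlap. That the groups were apart in every array is thus no separate support for them.

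AREG, which encodes the EGF-like ligand amphiregulin, rose by 4.44 ± 0.87 (SE, adjusted p = 0.00642), but its 0 h values ran from 0.24 to 4.95, the low end of the range, so the size of the change is uncertain. At 24 h its 4 values were 5.94, 8.54, 6.36 and 7.69, and its call was lost when the 0 h and 24 h arrays were fitted alone (adjusted p = 0.0609). IL1RL1, the receptor of interleukin 33, was between 3.47 and 5.23 at 0 h (median 4.23) and at 7.69, 7.17, 7.53 and 9.06 at 24 h, and rose by 3.56 ± 0.53 (SE, adjusted p = 0.000805). Of its 4 probe sets 2 were called higher. PTX3, a pentraxin that holds the matrix of the expanded cumulus together, went from between 4.76 and 6.20 at 0 h (median 5.65) to 7.46, 9.01, 7.91 and 9.35 and rose by 2.84 ± 0.40 (SE, adjusted p = 0.000487). For AREG, IL1RL1 and PTX3, groups that did not overlap were likewise a condition of their choice. CYP11B1, the mitochondrial 11-beta-hydroxylase that makes cortisol in the adrenal, rose by 2.85 ± 0.58 (SE, adjusted p = 0.00867), and both of its probe sets were called higher. Its near-identical neighbour CYP11B2 had a change of 0.17 ± 0.25 (SE, adjusted p = 0.815). Because the copies are so alike, the gene behind the CYP11B1 signal is uncertain. Other large rises belonged to ADAM18, of the ADAM family of membrane proteins (2.99), TMEFF2, a membrane protein with follistatin-like domains (2.96), and FCN1, a lectin that starts the complement cascade (3.08). Each of these was called by only 1 of its 2 probe sets. MYOM1, a protein of the sarcomere, rose by 2.68 ± 0.67 (SE, adjusted p = 0.0308) with values of 8.43, 9.05, 6.97 and 10.37 at 24 h, and lost its call when any 1 of 7 of the 10 arrays was left out (0 h arrays 1, 3, 5 and 6 and 24 h arrays 1, 2 and 4, adjusted p up to 0.137).

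Large falls were found in enzymes of androgen and estrogen synthesis, an inhibin subunit, a zinc transporter and a microtubule protein. SLC30A4, which moves zinc out of the cytosol, was between 8.67 and 10.03 at 0 h (median 9.66) and at 5.60, 6.21, 4.97 and 4.96 at 24 h. It fell by 4.05 ± 0.64 (SE, adjusted p = 0.00127), although only 1 of its 2 probe sets was called. MAP6D1, a small microtubule-stabilising protein, was between 9.35 and 10.98 at 0 h (median 10.30) and at 6.39, 6.83, 7.45 and 6.62, and fell by 3.37 ± 0.40 (SE, adjusted p = 0.000121). TRIB2, a pseudokinase that steers proteins to degradation, was lower by all 4 of its probe sets. By the one with the largest change it lay between 8.65 and 9.34 at 0 h and at 6.41, 6.16, 6.65 and 5.81 at 24 h, a change of -2.67 with an SE of 0.24. SLC26A2, a sulfate transporter needed for sulfated glycosaminoglycans, was lower by 3 of its 5 probe sets, with a change of -3.16 by the most changed. PBX3, a homeobox factor, had a change of -5.46 by a dimmer probe set, which lost its call when any 1 of 7 arrays was left out (0 h arrays 3, 5 and 6 and every 24 h array, adjusted p up to 0.0867). Its other 2 probe sets were not called. CNNM2, linked to magnesium handling, had a change of -3.77 in 1 of 3 probe sets, with 5.02, 5.15, 6.34 and -0.08 at 24 h, so that 24 h array 4 lay far below the other 3, and its call was lost when the 0 h and 24 h arrays were fitted alone (adjusted p = 0.128). CITED1, a transcriptional co-regulator, fell by 2.55 ± 0.64 (SE, adjusted p = 0.0324) and lost its call when any 1 of 8 of the 10 arrays was left out (0 h arrays 2, 3, 5 and 6 and 24 h arrays 1, 2, 3 and 4, adjusted p up to 0.108). Among the 14 called probe sets that were at least 16-fold lower and the 10 at least 16-fold higher were several without a gene name in the annotation, which are not described.

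**Figure D2:**
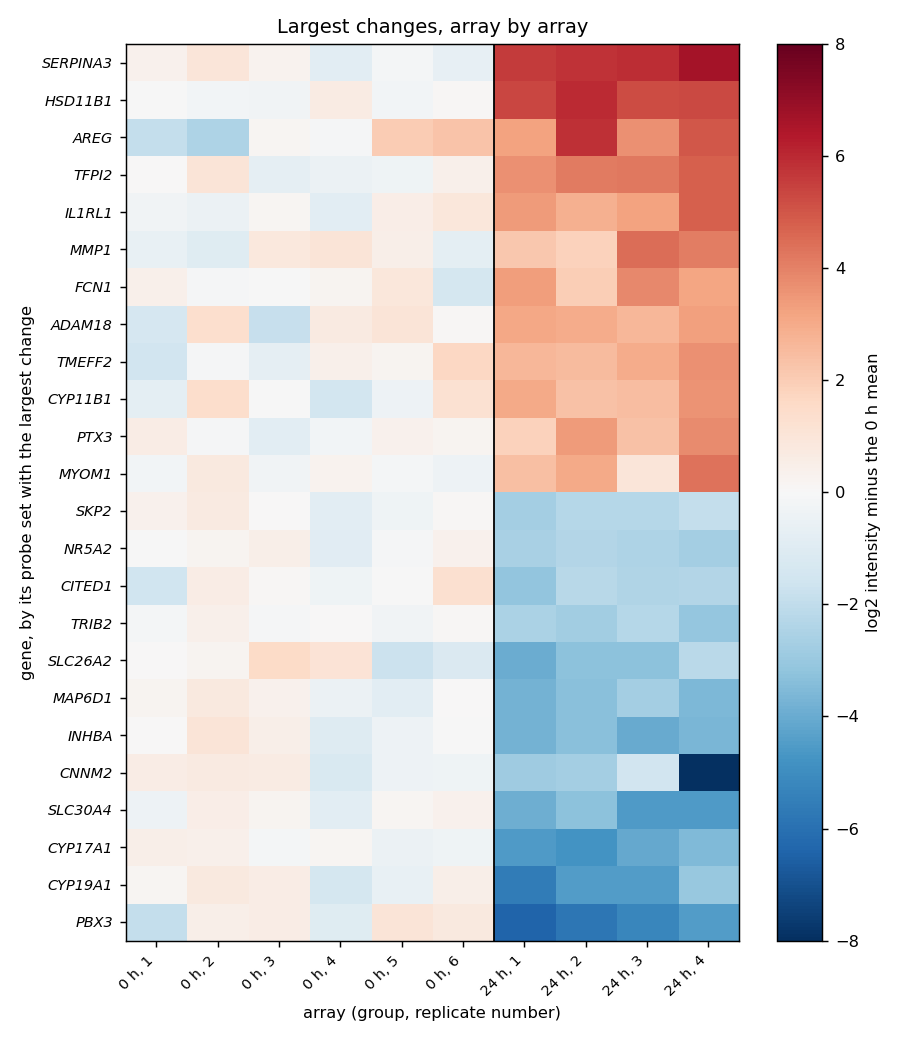
Log2 intensity minus the 0 h mean for the named largest changes (rows, 1 probe set per gene) in the 6 arrays at 0 h and the 4 at 24 h (columns). Red is above and blue below the 0 h mean. These genes were chosen among probe sets whose groups did not overlap, so 1 sign in all 4 follicles at 24 h was given by the choice. CNNM2 in 24 h array 4 and MYOM1 in 24 h array 3 stand out from their group.

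In the lists of androgen, estrogen and progesterone synthesis no enzyme was called higher, and both members that rose are proteins that bind cholesterol. Among genes of androgen and estrogen synthesis, 0 of 9 measured members rose and 3 fell, with a median change of -0.22. CYP17A1, the theca enzyme that makes androgens, was between 11.56 and 12.55 at 0 h (median 12.04) and at 7.51, 7.26, 7.98 and 8.55 at 24 h. It fell by 4.23 ± 0.38 (SE, adjusted p = 4.33e-06), an 18.7-fold difference, and both of its probe sets were called. CYP19A1, the granulosa aromatase that turns androgens into estrogens, was between 9.93 and 12.12 at 0 h (median 11.65) and at 5.76, 6.90, 6.87 and 8.31. It fell by 4.38 ± 0.60 (SE, adjusted p = 0.000403), with the groups apart, as the choice of the largest changes required. POR, the reductase that feeds electrons to these microsomal enzymes, fell by 1.02 ± 0.15 (SE, adjusted p = 0.000662) by 1 of its 4 probe sets. HSD17B1, which makes estradiol from estrone, had a change of -1.24 ± 0.36 (SE, adjusted p = 0.0656) and was not called, with values of 7.61, 7.47, 7.58 and 5.87 at 24 h. CYB5A, a helper of the lyase activity of CYP17A1, had a change of 0.59 ± 0.16 (SE, adjusted p = 0.0508) and was not called either.

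For progesterone synthesis, 2 of 12 measured members rose and 4 fell, with a median change of -0.17. STAR, which carries cholesterol to the inner mitochondrial membrane, was between 12.04 and 12.77 at 0 h (median 12.37) and at 13.15, 13.10, 13.24 and 13.24 at 24 h. It rose by 0.77 ± 0.14 (SE, adjusted p = 0.0033), with a narrow range at 24 h that began above the highest 0 h follicle. These values lie at the high end of the intensity range, so the size of the change is uncertain. TSPO, a cholesterol-binding protein of the outer mitochondrial membrane, rose by 0.81 ± 0.19 (SE, adjusted p = 0.0228) by 1 of 2 probe sets and lost its call without 24 h array 2 or 4 (adjusted p up to 0.107, and 0.115 in the fit of the 0 h and 24 h arrays alone). HSD3B2, which makes progesterone from pregnenolone, had a change of -1.18 ± 0.38 (SE, adjusted p = 0.107) and overlapping groups, with 8.52, 9.93, 10.30 and 10.57 at 24 h. FDXR, the ferredoxin reductase that passes electrons towards the mitochondrial enzymes, was between 9.94 and 10.59 at 0 h (median 10.40) and at 8.62, 8.71, 8.74 and 8.44, and fell by 1.72 ± 0.30 (SE, adjusted p = 0.00284), while its partner ferredoxin, FDX1, had a change of -0.36 ± 0.18 (SE, adjusted p = 0.343). STARD4, a soluble carrier of cholesterol, fell by 1.35 ± 0.30 (SE, adjusted p = 0.015) and lost its call without 24 h array 1 (adjusted p up to 0.0568). Both nuclear receptors that drive steroidogenic genes were lower. NR5A2 fell by 2.42 ± 0.46 (SE, adjusted p = 0.00546), with all 3 of its probe sets called, and NR5A1 fell by 0.98 ± 0.21 (SE, adjusted p = 0.0125), a call lost without 24 h array 1 (adjusted p up to 0.0572, and 0.0692 in the fit of the 0 h and 24 h arrays alone). CYP11A1, LHCGR and FSHR were not analysed here.

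Values at 12 h stand beside these. CYP17A1 was at 10.15 ± 1.09 (SD, n = 4) at 12 h and 7.82 ± 0.57 (SD, n = 4) at 24 h, a change between them of -2.33 ± 0.41 (adjusted p = 0.00212). CYP19A1 was at 10.12 ± 0.93 (SD, n = 4) at 12 h, and its change from there to 24 h was -3.16 ± 0.66 (adjusted p = 0.00637). Aromatase was thus not called at 12 h against 0 h, where its change was -1.22 (adjusted p = 0.246). STAR stood at 13.22 ± 0.28 (SD, n = 4) at 12 h, and the change from 12 h to 24 h was -0.04 ± 0.15 (adjusted p = 0.939). Both levels of STAR are at the high end of the range, so the size of that change is uncertain too. For HSD3B2 the change from 12 h to 24 h was -2.10 ± 0.42 (adjusted p = 0.00504), from a 12 h mean of 11.92 ± 0.54 (SD, n = 4). FDXR was at 8.89 ± 0.66 (SD, n = 4) at 12 h, with a change of -0.26 ± 0.33 (adjusted p = 0.738) to 24 h.

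Of 15 measured genes of antral granulosa cells 0 rose and 4 fell, the inhibin subunits INHBA and INHA, the enzyme CYP19A1 and the nuclear receptor NR5A2, with a median change of -0.69 beside 0.01 for all named genes. INHBA, the subunit shared by inhibin A and activin A, was between 10.67 and 11.96 at 0 h (median 11.31) and at 7.43, 8.08, 7.72 and 7.72 at 24 h. It fell by 3.60 ± 0.42 (SE, adjusted p = 8e-05) by the brighter of its probe sets and the other was also called, with a change of -3.70. INHA, the common alpha subunit of the inhibins, was between 11.15 and 12.07 at 0 h (median 11.82) and at 8.89, 10.33, 9.40 and 10.35. It fell by 2.00 ± 0.53 (SE, adjusted p = 0.0411), without overlap, but lost its call when any 1 of 9 of the 10 arrays was left out (0 h arrays 1, 2, 3, 5 and 6 and 24 h arrays 1, 2, 3 and 4, adjusted p up to 0.146). INHBB, the subunit of inhibin B, had a change of -2.62 ± 0.76 (SE, adjusted p = 0.0668), with 24 h array 3 at 3.87 and the other 3 at or below 1.17, and was not called. AMH, the anti-Müllerian hormone of growing follicles, had a change of -1.26 ± 0.89 (SE, adjusted p = 0.551), FST, the activin-binding follistatin, one of -0.61 ± 0.53 (SE, adjusted p = 0.651), and the granulosa factor GATA4 one of -0.69 ± 0.19 (SE, adjusted p = 0.0527). None of these 3 was called. INHBA stood at 10.11 ± 1.32 (SD, n = 4) at 12 h with wide spread and changed by -2.38 ± 0.46 (adjusted p = 0.00374) from there to 24 h.

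Genes of cortisol activation and of the glucocorticoid response held the largest share of called members among the 43 lists: 8 of 12 measured members rose and 0 fell, with a median change of 1.04. The lists were chosen with earlier results of these data known, so this rank is no separate support. Without 24 h array 4, 5 of the 12 were called. HSD11B1, described above, leads this list. ZBTB16, a zinc finger repressor induced by glucocorticoids in many tissues, was between 7.20 and 8.33 at 0 h (median 7.44) and at 9.63, 9.59, 9.46 and 9.14 at 24 h, and rose by 1.87 ± 0.23 (SE, adjusted p = 0.000163). CRISPLD2, a secreted protein that binds endotoxin, was between 8.30 and 9.64 at 0 h (median 9.17) and at 10.27, 10.52, 10.37 and 10.57, and rose by 1.43 ± 0.29 (SE, adjusted p = 0.0083) by 1 of 2 probe sets. In both genes the lowest follicle at 24 h was above the highest at 0 h. TSC22D3, the glucocorticoid-induced leucine zipper, rose by 0.86 ± 0.15 (SE, adjusted p = 0.0034), and GLUL, glutamine synthetase, rose by 1.00 ± 0.17 (SE, adjusted p = 0.00223). MT2A, a metal-binding metallothionein, rose by 1.18 ± 0.25 (SE, adjusted p = 0.0118) and lost its call without 24 h array 4 (adjusted p up to 0.0582). FKBP5, a co-chaperone of the glucocorticoid receptor, rose by 1.54 ± 0.41 (SE, adjusted p = 0.0417) and lost its call when any 1 of 7 of the 10 arrays was left out (0 h arrays 1, 2, 5 and 6 and 24 h arrays 1, 2 and 4, adjusted p up to 0.146, and 0.116 in the fit of the 0 h and 24 h arrays alone). The remaining members had changes of 1.02 (MT1X), 0.40 (SGK1), -0.54 (DUSP1) and -0.04 (NR3C1, the glucocorticoid receptor itself).

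Members of this list differed in when they moved. ZBTB16 was at 8.28 ± 0.51 (SD, n = 4) at 12 h and changed by 1.17 ± 0.25 (adjusted p = 0.00821) from 12 h to 24 h. TSC22D3 was at 10.16 ± 0.31 (SD, n = 4) at 12 h, below its 0 h mean, and changed by 1.25 ± 0.17 (adjusted p = 0.000311). For both, the call at 24 h was thus not present at 12 h, where the changes against 0 h were 0.70 (adjusted p = 0.0652) and -0.39 (adjusted p = 0.135). HSD11B1 was already at 9.34 ± 1.75 (SD, n = 4) at 12 h, where single follicles spread from 7.24 to 11.18, and its change from there to 24 h was 1.52 ± 0.58 (adjusted p = 0.136). In unruptured follicles at 36 h HSD11B1 stood at 10.28 ± 0.81 (SD, n = 4) and in ruptured ones at 11.83 ± 0.25 (SD, n = 4).

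Of 13 measured genes of the circadian clock, 4 rose and 0 fell, with a median change of 0.59. NFIL3, a repressor of clock output, was between 7.39 and 8.03 at 0 h (median 7.43) and at 8.60, 8.90, 8.70 and 8.95 at 24 h, and rose by 1.20 ± 0.23 (SE, adjusted p = 0.00481). NR1D1, the nuclear receptor that represses the core loop, rose by 2.51 ± 0.53 (SE, adjusted p = 0.011) by 1 of 2 probe sets, from values at 0 h that began at 1.47, near the low end, and its call was lost when the 0 h and 24 h arrays were fitted alone (adjusted p = 0.103). PER1, also a member of the glucocorticoid list, rose by 1.07 ± 0.28 (SE, adjusted p = 0.0375), a call lost when any 1 of 9 of the 10 arrays was left out (0 h arrays 1, 2, 3, 4 and 5 and 24 h arrays 1, 2, 3 and 4, adjusted p up to 0.109). TEF, an activator of clock output, rose by 0.59 ± 0.16 (SE, adjusted p = 0.0394) and lost its call when any 1 of 7 of the 10 arrays was left out (0 h arrays 1, 2 and 6 and 24 h arrays 1, 2, 3 and 4, adjusted p up to 0.131, and 0.11 in the fit of the 0 h and 24 h arrays alone). Leaving out 0 h array 1 or 2, or 24 h array 1, 2 or 4, left 2 called members, as did fitting the 0 h and 24 h arrays alone. CLOCK itself had a change of -0.00 ± 0.22 (SE, adjusted p = 0.998). TEF differed from 12 h by 0.97 ± 0.17 (adjusted p = 0.00206). The 12 h follicles, by the schedule, were collected at the opposite hour of the day, and the part of the hour in those values cannot be told apart from that of the interval.

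**Figure D3:**
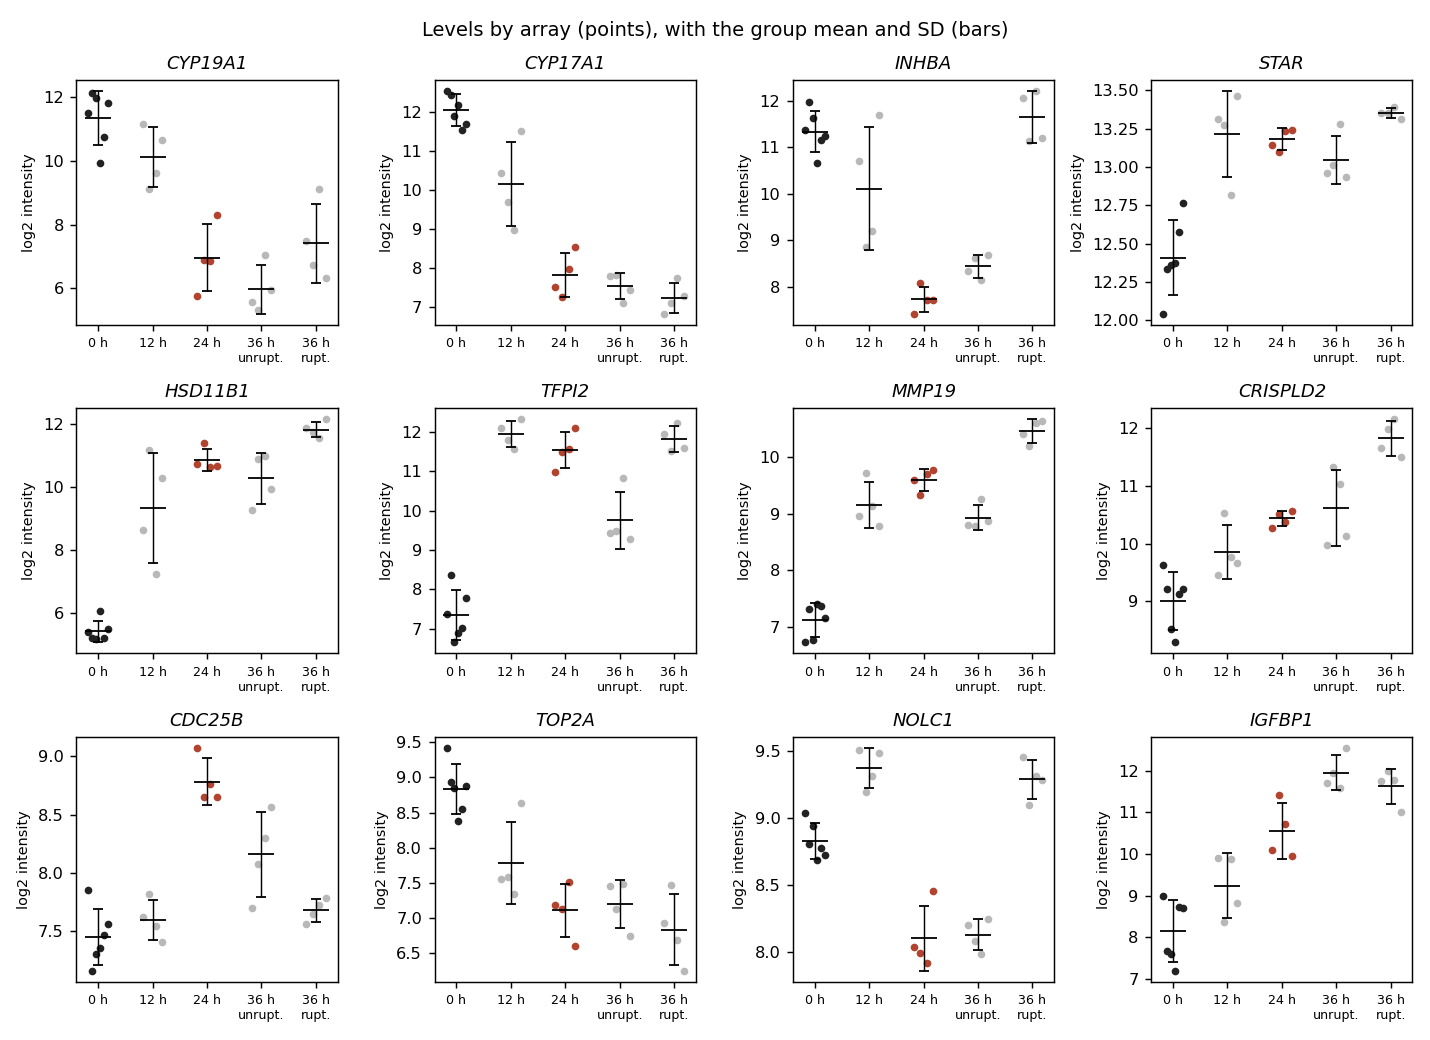
Log2 intensities of 12 genes in all 22 arrays, 1 point per follicle, in the 5 groups (0 h, n = 6; 12 h, 24 h and both 36 h groups, n = 4 each), with the group mean and SD. The 24 h points (red) lie below all 0 h points (black) for CYP19A1, CYP17A1, INHBA, TOP2A and NOLC1 and above them for the other 7 genes. For CYP19A1, CYP17A1, HSD11B1 and TFPI2 this was a condition of their choice among the largest changes.

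Genes of ovulation and luteinization remained above 0 h in part. At 24 h, 6 of 21 measured members had risen and 0 had fallen, with a median change of 0.81. At 12 h against 0 h, where 6.5% of all named genes were called higher and 7.8% lower, 14 members were higher and 1 lower, with a median of 1.93. From 12 h to 24 h, where 5.84% of named genes were called higher and 5.02% lower, 0 members were higher and 8 lower, with 5 lower without 12 h array 1 or 4 and 3 without 24 h array 1. MMP19, a metalloproteinase of basement membranes, was between 6.73 and 7.40 at 0 h (median 7.23) and at 9.59, 9.33, 9.70 and 9.77 at 24 h. It rose by 2.47 ± 0.19 (SE, adjusted p = 6.56e-07), the lowest p of this list, and by both probe sets. MMP1, the interstitial collagenase, was between 1.95 and 3.98 at 0 h (median 2.89) and at 5.10, 4.77, 7.39 and 7.04, and rose by 3.13 ± 0.58 (SE, adjusted p = 0.00447), with both probe sets called. MMP10, the stromelysin that activates other metalloproteinases, rose by 3.91 ± 0.83 (SE, adjusted p = 0.0118). Its 0 h values ran from -1.89 to 3.38, the low end of the range, so the size of this change is uncertain. RGS2, which dampens G protein signals, rose by 1.58 ± 0.32 (SE, adjusted p = 0.0082), with 10.21, 11.22, 10.58 and 11.26 at 24 h. The groups of these genes were apart, which for MMP1 the choice of the largest changes required. For MMP10, its call was lost when the 0 h and 24 h arrays were fitted alone (adjusted p = 0.0915).

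Other genes of the list were not called against 0 h. ADAMTS4, which cuts the proteoglycan versican, had a change at 24 h of 0.97 ± 0.42 (SE, adjusted p = 0.254) and a change from 12 h to 24 h of -2.72 ± 0.46 (adjusted p = 0.00149). CEBPB, a factor that luteinizing granulosa cells need, had a change of 0.70 ± 0.20 (SE, adjusted p = 0.0598) against 0 h and -1.24 ± 0.22 (adjusted p = 0.00201) against 12 h. PGR, the progesterone receptor, was between 5.93 and 6.50 at 0 h (median 6.03) and at 5.88, 6.03, 5.97 and 5.82 at 24 h, a change of -0.22 ± 0.40 (SE, adjusted p = 0.858). HAS2, which makes the hyaluronan of the cumulus matrix, and TNFAIP6, which crosslinks it, had changes of 0.34 ± 0.67 (SE, adjusted p = 0.872) and 1.46 ± 0.58 (SE, adjusted p = 0.212). RUNX1, a transcription factor of the LH response, had a change of 0.81 ± 0.23 (SE, adjusted p = 0.062) and ADAMTS1, another versican protease, 0.81 ± 0.30 (SE, adjusted p = 0.176). None of these 7 was called at 24 h, which does not show that they had returned to the 0 h level.

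Among all 27 measured matrix proteases, the 3 metalloproteinases above rose and 1 member fell, with a median change of 0.35. The one that fell was ADAM12, a membrane-bound metalloproteinase, which fell by 1.05 ± 0.21 (SE, adjusted p = 0.00652) by all 3 probe sets. Inhibitors of proteases rose in 5 of 22 measured genes and fell in 0, with a median of 0.26. TIMP1, the inhibitor of metalloproteinases, was between 11.77 and 12.48 at 0 h (median 12.08) and at 13.32, 13.40, 13.41 and 13.44 at 24 h, and rose by 1.32 ± 0.12 (SE, adjusted p = 4.35e-06) by 1 of 3 probe sets. Its levels after hCG lay at the high end of the intensity range, so the size of its changes is uncertain. SERPINF1, which encodes the anti-angiogenic factor PEDF, rose by 1.63 ± 0.19 (SE, adjusted p = 7.88e-05), and SERPING1, the C1 inhibitor, rose by 1.18 ± 0.16 (SE, adjusted p = 0.000379). With SERPINA3 and TFPI2 these were all 5 called inhibitors, and each kept its call when any array was left out. Their changes from 12 h to 24 h were -0.59 ± 0.36 (adjusted p = 0.394) for SERPINA3, -0.40 ± 0.37 (adjusted p = 0.622) for TFPI2, -0.06 ± 0.13 (adjusted p = 0.872) for TIMP1, 0.43 ± 0.21 (adjusted p = 0.252) for SERPINF1 and 0.55 ± 0.17 (adjusted p = 0.0661) for SERPING1, with none called. At 36 h, unruptured follicles had a mean of 8.60 ± 0.70 (SD, n = 4) for SERPINA3, against 11.26 ± 0.49 (SD, n = 4) at 24 h. Both probe sets called lower at 36 h belonged to this gene.

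For mitosis and the cell cycle, 2 of 33 measured members rose, 13 fell and 18 were not called, with a median change of -0.68. Without 24 h array 1, 7 fell, and without 24 h array 4, 8. TOP2A, the topoisomerase that untangles sister chromatids, was between 8.38 and 9.42 at 0 h (median 8.86) and at 7.18, 7.13, 7.51 and 6.60 at 24 h, and fell by 1.73 ± 0.28 (SE, adjusted p = 0.00151) by both of its probe sets. MAD2L1, of the spindle checkpoint, fell by 0.98 ± 0.15 (SE, adjusted p = 0.00108), CCNB1, cyclin B1, fell by 1.19 ± 0.20 (SE, adjusted p = 0.00222), and CENPF, a kinetochore protein, fell by 1.21 ± 0.24 (SE, adjusted p = 0.0075). For CENPF, its call was lost when the 0 h and 24 h arrays were fitted alone (adjusted p = 0.0604). CDK1, the kinase of cyclin B1, fell by 1.25 ± 0.26 (SE, adjusted p = 0.0103), a call lost without 24 h array 4 (adjusted p up to 0.0526, and 0.0579 in the fit of the 0 h and 24 h arrays alone). The proliferation marker MKI67 had a change of -1.05 ± 0.30 (SE, adjusted p = 0.066), with all 4 follicles at 24 h (6.44, 6.23, 6.00 and 5.83) below the lowest at 0 h, and was not called. SKP2, the F-box protein that targets cell cycle inhibitors for degradation, was between 7.79 and 9.41 at 0 h (median 8.72) and at 5.93, 6.37, 6.36 and 6.79, and fell by 2.30 ± 0.30 (SE, adjusted p = 0.000242) by all 3 of its probe sets. The SKP2 target CDKN1B, p27, had a change of 0.14 ± 0.16 (SE, adjusted p = 0.744).

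The 2 cell cycle genes that rose were CDKN1A and CDC25B. CDKN1A encodes p21, an inhibitor of cyclin-dependent kinases. It was between 6.76 and 7.48 at 0 h (median 7.33) and at 8.54, 9.28, 8.52 and 9.07 at 24 h, and rose by 1.59 ± 0.25 (SE, adjusted p = 0.00143). CDC25B is a phosphatase that activates those kinases. It was between 7.16 and 7.85 at 0 h (median 7.41) and at 9.07, 8.65, 8.76 and 8.65, and rose by 1.33 ± 0.16 (SE, adjusted p = 0.000124). In both the groups were apart. CDC25B was at 7.60 ± 0.17 (SD, n = 4) at 12 h, with a change against 0 h of 0.15 (adjusted p = 0.669) and of 1.18 ± 0.18 (adjusted p = 0.000597) from 12 h to 24 h. In unruptured follicles at 36 h it was at 8.16 ± 0.37 (SD, n = 4) and in ruptured ones at 7.68 ± 0.10 (SD, n = 4).

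Of 27 measured genes of DNA replication, 0 rose and 9 fell, with a median change of -0.54. Without 24 h array 1, without 24 h array 4, or with the 0 h and 24 h arrays fitted alone, 5 fell. Subunits of the replicative helicase were lower. MCM4 was between 8.07 and 8.33 at 0 h (median 8.23) and at 7.29, 7.31, 7.73 and 7.31 at 24 h, and fell by 0.81 ± 0.12 (SE, adjusted p = 0.000968), although only 1 of its 4 probe sets was called. MCM2 fell by 0.85 ± 0.13 (SE, adjusted p = 0.00114) and MCM5 fell by 0.70 ± 0.14 (SE, adjusted p = 0.00909). PCNA, the sliding clamp of the polymerases, fell by 0.50 ± 0.11 (SE, adjusted p = 0.0143) and lost its call without 24 h array 1 or 4 (adjusted p up to 0.0508, and 0.0661 in the fit of the 0 h and 24 h arrays alone). At 12 h against 0 h, 13 members of the mitosis list and 14 of the replication list were already called lower. From 12 h to 24 h, 1 mitosis gene was called lower and 1 higher, and 0 replication genes lower and 1 higher, counts that moved by at most 1 when single arrays were left out.

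Of 35 measured genes of ribosome assembly in the nucleolus 8 fell, 1 rose and the rest were not called, with a median change of -0.35. NOP56, a core protein of the particles that methylate ribosomal RNA, was between 9.29 and 9.45 at 0 h (median 9.35) and at 8.60, 8.61, 8.50 and 8.53 at 24 h. It fell by 0.80 ± 0.12 (SE, adjusted p = 0.00116) by all 3 probe sets, with narrow ranges that did not overlap. NOLC1, a chaperone of such particles, fell by 0.73 ± 0.12 (SE, adjusted p = 0.00199) by all 3 probe sets, DKC1, the pseudouridine synthase of ribosomal RNA, fell by 0.56 ± 0.10 (SE, adjusted p = 0.0041), and GNL3, nucleostemin, fell by 0.58 ± 0.12 (SE, adjusted p = 0.00845). WDR43, of the small subunit processome, fell by 0.61 ± 0.12 (SE, adjusted p = 0.00864). POLR1D, a subunit of RNA polymerases I and III, rose by 0.48 ± 0.11 (SE, adjusted p = 0.0228) and lost its call when any 1 of 4 of the 10 arrays was left out (0 h array 5 and 24 h arrays 1, 2 and 3, adjusted p up to 0.0807, and 0.0862 in the fit of the 0 h and 24 h arrays alone). These genes did not stand at one side of 0 h throughout. At 12 h against 0 h, 12 members were called higher and 0 lower (median 0.40). From 12 h to 24 h, 21 were called lower and 1 higher (median -0.68). NOLC1 was at 9.37 ± 0.15 (SD, n = 4) at 12 h, at 8.10 ± 0.24 (SD, n = 4) at 24 h, and changed between them by -1.27 ± 0.13 (adjusted p = 4.69e-05). WDR43 was at 8.54 ± 0.21 (SD, n = 4) at 12 h and changed by -1.18 ± 0.14 (adjusted p = 0.0001).

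Few genes of the basement membrane and matrix were called, and those moved in both directions. Of 40 measured collagens, laminins and fibrillar matrix genes 3 rose and 2 fell, with a median change of 0.08. Among all named genes 2.87% rose and 2.62% fell, so such small counts say little about the list as a whole. LAMA1, a laminin alpha chain, was between 8.26 and 9.58 at 0 h (median 9.25) and at 6.55, 6.90, 7.11 and 6.68 at 24 h, and fell by 2.24 ± 0.24 (SE, adjusted p = 3.59e-05) by both probe sets. LAMA2, another alpha chain, was between 9.40 and 9.70 at 0 h (median 9.55) and at 10.75, 10.81, 10.53 and 10.21, and rose by 1.04 ± 0.16 (SE, adjusted p = 0.00131) by 2 of 3 probe sets. The 2 laminin chains thus moved apart without overlap of groups. LAMB1, a beta chain, rose by 0.77 ± 0.14 (SE, adjusted p = 0.00437). COL4A6, a chain of type IV collagen, rose by 1.16 ± 0.27 (SE, adjusted p = 0.0207) by 1 of 2 probe sets, a call lost without 24 h array 1, 2 or 4 (adjusted p up to 0.0678), and was 1.64 ± 0.30 (adjusted p = 0.00247) above its 12 h level. HSPG2, the basement membrane proteoglycan perlecan, fell by 0.95 ± 0.20 (SE, adjusted p = 0.0096) and lost its call without 24 h array 4 (adjusted p up to 0.0519, and 0.0575 in the fit of the 0 h and 24 h arrays alone). F11R, an adhesion molecule of tight junctions, was between 8.28 and 9.37 at 0 h (median 8.67) and at 10.13, 10.47, 10.63 and 10.68, and rose by 1.71 ± 0.20 (SE, adjusted p = 9.1e-05), the 1 called gene of 21 measured junction genes (0 lower). Of 25 measured angiogenic ligands and receptors 1 was called, ANGPT1, the ligand of the endothelial receptor TIE2, which rose by 1.27 ± 0.28 (SE, adjusted p = 0.0148) by 2 of 4 probe sets and lost its call without 24 h array 1 or 4 (adjusted p up to 0.0704, and 0.0557 in the fit of the 0 h and 24 h arrays alone).

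Guidance molecules gave 2 higher and 2 lower of 38 measured. EFNB1, an ephrin, was between 7.85 and 9.21 at 0 h (median 8.49) and at 6.64, 6.23, 6.72 and 6.70 at 24 h, and fell by 1.96 ± 0.21 (SE, adjusted p = 3.5e-05) by both probe sets. ROBO1, a receptor of the Slit ligands, was between 6.94 and 8.02 at 0 h (median 7.35) and at 8.36, 8.80, 8.66 and 8.86, and rose by 1.22 ± 0.25 (SE, adjusted p = 0.00966). The secreted semaphorin SEMA3C rose by 0.86 ± 0.19 (SE, adjusted p = 0.0126) and the semaphorin co-receptor PLXNA1 fell by 0.59 ± 0.10 (SE, adjusted p = 0.00215).

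In the inhibin, activin, BMP and TGF-beta list 6 of 39 measured members rose and 5 fell, and the rises were sensitive to single arrays. The number that rose was 3 without 0 h array 1 or 5 or without 24 h array 1 or 3, 2 without 0 h array 3 or 24 h array 2, and 0 without 24 h array 4. The number that fell was 2 without 24 h array 1 and 3 without 24 h array 4. With the 0 h and 24 h arrays fitted alone, 3 rose and 3 fell. BAMBI, a decoy receptor of the family, was between 9.26 and 10.27 at 0 h (median 9.73) and at 8.07, 8.35, 8.44 and 7.80 at 24 h, and fell by 1.59 ± 0.23 (SE, adjusted p = 0.00055), a call kept whichever array was left out. GDF15, a stress-induced distant member, rose by 1.79 ± 0.37 (SE, adjusted p = 0.0107) and lost its call without 24 h array 4 (adjusted p up to 0.0561). FSTL3, an activin-binding protein, rose by 0.82 ± 0.18 (SE, adjusted p = 0.0168), lost without 24 h array 1 or 4 (adjusted p up to 0.0782, and 0.0693 in the fit of the 0 h and 24 h arrays alone), and the signal carrier SMAD3 fell by 0.54 ± 0.12 (SE, adjusted p = 0.0192), lost without 24 h array 1 or 4 (adjusted p up to 0.0863, and 0.0761 in the fit of the 0 h and 24 h arrays alone).

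In the WNT list, 2 of 34 measured members rose and 2 fell, with 0 lower when the 0 h and 24 h arrays were fitted alone. APCDD1, a membrane inhibitor of WNT signals, was between 7.82 and 8.28 at 0 h (median 7.91) and at 9.38, 10.04, 9.46 and 9.35 at 24 h, and rose by 1.58 ± 0.31 (SE, adjusted p = 0.00686). Among the frizzled receptors, FZD1 rose by 0.72 ± 0.15 (SE, adjusted p = 0.00904) and FZD4 fell by 0.77 ± 0.16 (SE, adjusted p = 0.0119). For FZD4, its call was lost when the 0 h and 24 h arrays were fitted alone (adjusted p = 0.0812). FZD5 fell by 0.81 ± 0.19 (SE, adjusted p = 0.0231) with overlapping groups and lost its call without 0 h array 3 or 5 or 24 h array 3 or 4 (adjusted p up to 0.103, and 0.102 in the fit of the 0 h and 24 h arrays alone).

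In the insulin and IGF system 3 of 15 measured members rose and 0 fell, with a median change of 0.39, and all 3 were IGF-binding proteins, which hold IGFs in the extracellular space. IGFBP1 was between 7.19 and 8.99 at 0 h (median 8.18) and at 10.09, 11.42, 10.73 and 9.96 at 24 h, and rose by 2.40 ± 0.40 (SE, adjusted p = 0.00214). IGFBP4 was between 11.17 and 11.90 at 0 h (median 11.36) and at 12.46, 12.48, 12.66 and 12.74, and rose by 1.14 ± 0.14 (SE, adjusted p = 0.00019). IGFBP3 was between 7.89 and 9.39 at 0 h (median 8.92) and at 10.29, 9.96, 10.19 and 10.25, and rose by 1.34 ± 0.23 (SE, adjusted p = 0.00281). No follicle at 24 h lay within the 0 h range of any of the 3, and each kept its call when any array was left out.

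Cytokine and complement genes changed in small numbers. Among 34 measured chemokines, cytokines and receptors 3 rose and 1 fell, and without 24 h array 1 or 4, or with the 0 h and 24 h arrays fitted alone, only 1 rose. CCL8, a chemokine of monocytes, was between 8.77 and 9.51 at 0 h (median 9.11) and at 7.36, 7.41, 7.97 and 7.55 at 24 h, and fell by 1.55 ± 0.17 (SE, adjusted p = 5.23e-05) by 1 of 3 probe sets. OSMR, the receptor of oncostatin M, was between 9.26 and 9.90 at 0 h (median 9.60) and at 10.50, 10.65, 10.69 and 11.36, and rose by 1.21 ± 0.20 (SE, adjusted p = 0.00183), with all 3 probe sets called higher. IL1RN, the natural antagonist of interleukin 1, rose by 1.24 ± 0.30 (SE, adjusted p = 0.0287), a call lost without 24 h array 1, 3 or 4 (adjusted p up to 0.107, and 0.0996 in the fit of the 0 h and 24 h arrays alone). CCL2, the main chemokine of monocytes, had a change of -0.16 ± 0.41 (SE, adjusted p = 0.907) against 0 h and of -2.79 ± 0.45 (adjusted p = 0.00108) from 12 h to 24 h. LIF, a cytokine of the interleukin 6 family, had a change of -0.09 ± 0.50 (SE, adjusted p = 0.961) against 0 h and of -2.92 ± 0.55 (adjusted p = 0.0033) from 12 h. Of 24 measured complement and coagulation genes 4 rose and 0 fell, with 2 left without 0 h array 1, 3 or 6 or 24 h array 1 and 1 left without 24 h array 2 or 4 or with the 0 h and 24 h arrays fitted alone. C1S, the protease of the classical pathway, was between 10.54 and 11.16 at 0 h (median 10.79) and at 11.86, 11.94, 11.59 and 11.90, and rose by 1.02 ± 0.14 (SE, adjusted p = 0.000504), the one call kept in all of these fits. Of 27 measured genes of the interferon response 0 were called.

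Outside these processes few members of any list were called. PDK4, the kinase that shuts pyruvate out of the mitochondrial oxidation pathway, was between 7.12 and 8.05 at 0 h (median 7.54) and at 9.08, 9.24, 9.47 and 8.77 at 24 h, and rose by 1.54 ± 0.31 (SE, adjusted p = 0.00765). It was at 6.64 ± 0.58 (SD, n = 4) at 12 h, and the change from there was 2.49 ± 0.34 (adjusted p = 0.00032). DDIT4, an inhibitor of mTOR signalling, rose by 1.00 ± 0.18 (SE, adjusted p = 0.00377), and these were the 2 called genes of 23 for glucose uptake, glycolysis and hypoxia (0 lower). HERPUD1, of the degradation of misfolded proteins, was between 9.88 and 10.33 at 0 h (median 10.10) and at 11.07, 10.69, 10.69 and 10.68, and rose by 0.69 ± 0.12 (SE, adjusted p = 0.00313). It was the 1 called gene of 18 for the unfolded protein response, where 9 were called higher at 12 h against 0 h. PRKAR2B, a regulatory subunit of protein kinase A, fell by 0.94 ± 0.18 (SE, adjusted p = 0.00636) and with RGS2 made up the 2 called genes of 30 for cAMP signalling.

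TM7SF2, a sterol reductase, fell by 1.66 ± 0.26 (SE, adjusted p = 0.00116) by 2 of 3 probe sets, the 1 called gene of 18 for cholesterol synthesis. PGRMC1, a heme-binding membrane protein that binds cytochromes P450, was between 12.26 and 12.60 at 0 h (median 12.40) and at 11.34, 11.34, 11.30 and 11.07. It fell by 1.14 ± 0.12 (SE, adjusted p = 2.37e-05) by all 4 of its probe sets and was the 1 called gene of 12 among gonadotropin, prolactin and steroid receptors. FOSL2, an AP-1 factor, was the 1 called of 13 immediate early genes. It rose by 0.85 ± 0.21 (SE, adjusted p = 0.0271) by 1 of 2 probe sets and lost its call when any 1 of 5 of the 10 arrays was left out (0 h arrays 2 and 3 and 24 h arrays 2, 3 and 4, adjusted p up to 0.0891). Of 35 measured genes of oxidative phosphorylation 1 rose and 1 fell, and both calls were lost in some of the fits without 1 array (UQCRB, which fell, without 0 h array 3 or 24 h array 1, 2 or 3 (adjusted p up to 0.0786); the other without any 1 of 0 h arrays 3 to 6 or of the 24 h arrays). Of 28 apoptosis and TNF family genes 1 rose, MCL1, a survival factor, by 0.34 ± 0.09 (adjusted p = 0.0492), a call lost when any 1 of 9 of the 10 arrays was left out (0 h arrays 1, 2, 3, 5 and 6 and 24 h arrays 1, 2, 3 and 4, adjusted p up to 0.125, and 0.143 in the fit of the 0 h and 24 h arrays alone). In the list of antioxidant and detoxification enzymes 3 of 28 rose (MT2A, SOD2 and GSTT1) and 1 fell (CYP3A4). SOD2, the mitochondrial superoxide dismutase, rose by 1.00 ± 0.23 (SE, adjusted p = 0.0207) and lost its call without 24 h array 3 or 4 (adjusted p up to 0.0863). GSTT1 lost its call when any 1 of 8 of the 10 arrays was left out (0 h arrays 1, 2, 4 and 5 and 24 h arrays 1, 2, 3 and 4, adjusted p up to 0.133, and 0.2 in the fit of the 0 h and 24 h arrays alone) and CYP3A4 when any 1 of 8 of the 10 arrays was left out (0 h arrays 2, 3, 5 and 6 and 24 h arrays 1, 2, 3 and 4, adjusted p up to 0.169, and 0.052 in the fit of the 0 h and 24 h arrays alone). No member was called among 16 genes of lipid storage, 8 of prostaglandin handling or 7 reference genes, whose median change was -0.01.

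**Figure D4:**
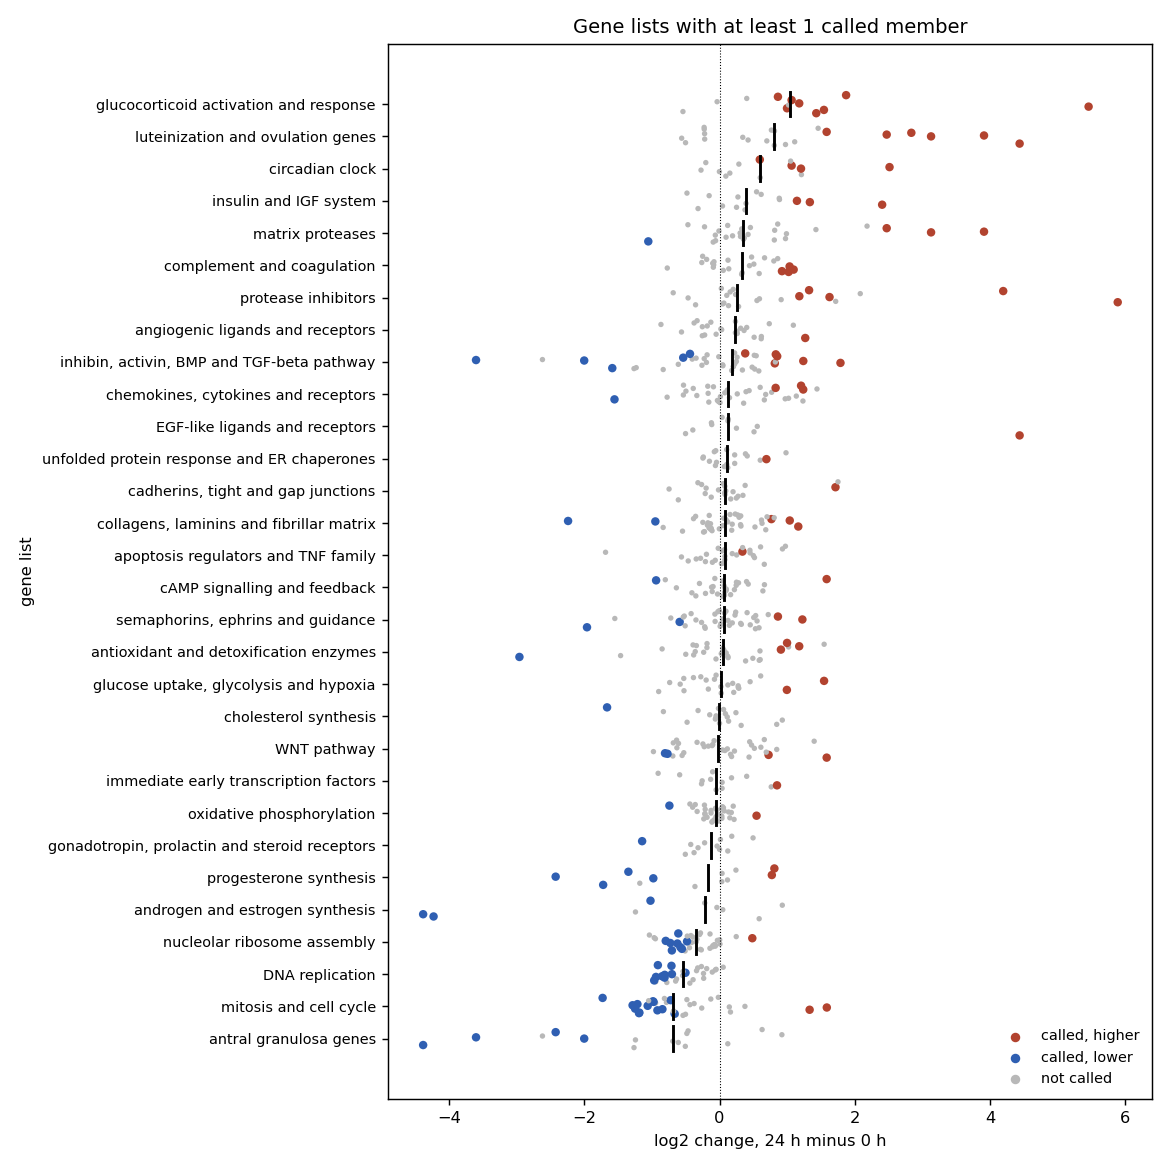
Log2 change (24 h minus 0 h) of every measured member of each gene list with a called member, by the brightest probe set of each gene, in order of the list's median (black bar). Red and blue points are called members; the lists of glucocorticoid response (8 of 12) and protease inhibitors (5 of 22) have called members on the right alone, and those of DNA replication (9 of 27) and antral granulosa genes (4 of 15) on the left alone.

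Among markers of the cell types a follicle holds, few were called. The linear intensities of 10 measured granulosa markers summed to between 9615 and 17721 at 0 h and between 3873 and 5809 at 24 h, with 4 members lower, 0 higher and a median change of -1.63. The 4 are the antral granulosa genes described above, and GATM, another marker of the list, had a mean of 11.20 at 0 h and 11.06 at 24 h. Of 10 theca and smooth muscle markers 1 fell, CYP17A1, and 0 rose. The contractile markers MYH11 and TAGLN had changes of 0.33 and 0.44 and were not called. The other uncalled members went both ways. Changes were negative for GLI1 (-0.71), HHIP (-0.21) and OGN (-0.15) and positive for SMTN (0.61), CNN1 (0.58), LMOD1 (0.56) and PTCH1 (0.07). Macrophage and monocyte markers summed to between 2152 and 3792 at 0 h and between 3476 and 7377 at 24 h. Of 14 measured, 13 had a positive change, with a median of 0.61, and 2 rose. LYZ, lysozyme, rose by 1.47 ± 0.37 (SE, adjusted p = 0.0312) and AIF1, an actin-binding protein of macrophages, rose by 1.15 ± 0.31 (SE, adjusted p = 0.0489). The call of LYZ was lost when any 1 of 5 of the 10 arrays was left out (0 h arrays 3, 4 and 6 and 24 h arrays 1 and 4, adjusted p up to 0.126, and 0.128 in the fit of the 0 h and 24 h arrays alone), and that of AIF1 when any 1 of 8 of the 10 arrays was left out (0 h arrays 1, 3, 4, 5 and 6 and 24 h arrays 1, 3 and 4, adjusted p up to 0.194, and 0.101 in the fit of the 0 h and 24 h arrays alone). CD14 and TYROBP, also of the list, had changes of 0.71 ± 0.24 (SE, adjusted p = 0.12) and 1.09 ± 0.39 (SE, adjusted p = 0.145).

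Neutrophil markers were dim in all follicles, with sums between 85 and 296 at 0 h and between 271 and 378 at 24 h, and FCN1 was the 1 called of 10. It was between 1.85 and 4.14 at 0 h (median 3.36) and at 6.62, 5.25, 7.08 and 6.40, and rose by 3.08 ± 0.40 (SE, adjusted p = 0.000243) by 1 of 2 probe sets. Neither lymphocyte (10 measured), erythrocyte (4), endothelial (13), oocyte (13) nor surface epithelium markers (9) had a called member. The part of changed cell numbers in the results above was not tested. Among defining markers of the follicle wall, the granulosa marker INHA, whose call depended on single arrays, had a mean of 11.74 at 0 h and 9.74 at 24 h. The granulosa marker GATM had means of 11.20 and 11.06, and the smooth muscle marker MYH11 11.67 and 12.00. The median level over all probe sets was 4.63.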

How the data were processed

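The authors deposited an intensity for each probe set on each array. RMA is the tool named, per the submitters' processing notes, without a version; it corrects background, normalizes between arrays and summarises the probes of a set. Intensities ran from 0.0361 to 15137 with array medians of 26.1 to 26.7, so the deposited intensities are linear, and log2 was taken here. No detection calls, scan dates or batches were given, so no probe set can be called above or below background and no batch was tested. Groups came from the sample titles.

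The 99 control probe sets were left out. Group means of all 22 arrays (5 groups) were fitted to the other 52766 with limma 3.58.1 in R 4.3.3 (lmFit, eBayes) to pool the spread of all groups. P-values were two-sided and adjusted by the Benjamini-Hochberg method over all 52766. Symbols came from the platform annotation: 24956 probe sets had 1 symbol, 361 several and 27449 none. Of the first, 24616 matched the RefSeq gene table, and 0 symbols needed an update. The annotation used here holds no coordinates of the arrays' build, so none are given.

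The members and the 43 gene lists (1096 genes, 802 measured) were chosen with earlier results of these data known. Named were the 12 highest and 12 lowest changes among called probe sets of above-median level whose groups did not overlap, up to 3 called members per list with a change of at least 1 (or the called member with the lowest p), and a panel of ovarian genes. Further list members were named after their values were seen, among them GLUL, TSC22D3, FKBP5, SERPINF1, SERPING1, MMP10, the genes of replication and the nucleolus other than MCM4 and NOP56, and all members given as not called outside the panel.

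The fit was tested for this comparison on simulated data with independent normal noise. Of 100 probe sets changed 2-fold and 100 changed 4-fold, all drawn from above the median level, it recovered 64% and 93%. It called 13 unchanged ones. Recovery at or below that level, where the median SE was 0.63 against 0.18 above it, was not tested. The number of arrays limits the precision. Alternatives were 10 fits leaving out 1 array each and 8 other settings.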

Additional observations from a re-analysis of the deposited data

Results flagged for a closer look

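In each named gene, and in both principal components, a single follicle was looked for that stood apart from the rest of its group by more than a set share of the group's range. Of 296 groups of values, 18 (6.08%) held one, where chance gives about 1 in 20. 24 h array 4 held 4 of them and 0 h array 2 held 3, and no explanation was tested.

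At 0 h, HSD11B1 was at 6.05 in array 4 and at 5.15 to 5.47 in the others, and INHBB was at 1.95 in array 4 and at 4.25 to 5.51 in the others. CDKN1A was at 6.76 in array 3, below 7.24 to 7.48, and LIF at 3.60 in array 3, below 4.28 to 4.62. IL1RN was at 2.15 in array 6, with the others at 3.30 to 3.88. In array 2, FZD5 was at 6.81 (others 7.35 to 7.59), AMH at 4.09 (others 7.59 to 8.87) and the second principal component at -59.8 (others -6.89 to 20.4).

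At 24 h, array 2 was high for HSD11B1, at 11.39 (others 10.65 to 10.73), and for APCDD1, at 10.04 (others 9.35 to 9.46). Array 1 was low for CITED1, at 5.09 (others 5.87 to 6.03), and high for HERPUD1, at 11.07 (others 10.68 to 10.69). Array 3 was high for INHBB, at 3.87 (others 0.82 to 1.17), and for MCM4, at 7.73 (others 7.29 to 7.31). Array 4 was low for HSD17B1, at 5.87 (others 7.47 to 7.61), PGRMC1, at 11.07 (others 11.30 to 11.34), and POLR1D, at 9.71 (others 10.09), and high for WDR43, at 7.60 (others 7.25 to 7.30).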

How the results depend on the processing

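The count of 1771 called probe sets at 24 h against 0 h became 1082 when only the 0 h and 24 h arrays were fitted, 3070 when only probe sets above the median level were tested, and 959 to 1616 when 1 array was left out. In the other 5 unblocked settings (16 added before log2, quantile normalization, array weights, an intensity trend, the 3' minus 5' index as covariate) it was 1801 to 2551. The first change leaves fewer arrays to estimate the spread and the second leaves fewer tests; other causes were not tested. Between 46.7% and 53.5% of calls were higher in all fits. With the replicate number as a block, 652 probe sets were called (349 higher, 303 lower), of which 602 were also called without it in the same direction. Whether follicles with the same number share an animal or a batch is not known here. Deviations of follicles with the same number correlated at -0.018, -0.176, 0.071 and -0.099, and those with other numbers at up to 0.229. Such low values cannot show that nothing was shared, since no batches or animals were given for the arrays.

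Of 117 called named probe sets, 78 kept their call whichever of the 10 arrays was left out and 64 kept it in all 8 other settings. The block ended 44 of these calls and the fit of the 0 h and 24 h arrays alone 31, of which 24 have that adjusted p beside them in the report and the rest are C5, C7, CD55, IL6R, TGFBI, TGFBR1 and TGFBR2 (0.0692 to 0.103). Apart from these 2 settings, IL1RN lost its call with 16 added, MCL1 with quantile normalization, and MCL1, FKBP5, TGFBR2 and GSTT1 with the 3' minus 5' index. No named gene changed direction in a called fit. Some named genes not called here were called in other settings. With 16 added or an intensity trend these were HSD17B1, INHBB, MKI67, CEBPB, RUNX1, CYB5A and GATA4. With only probe sets above the median level, these were joined by HSD3B2 and CD14, without INHBB. Array weights gave CEBPB, CYB5A and GATA4, the 0 h and 24 h arrays alone MKI67, and the 3' minus 5' index GATA4. HSD17B1, INHBB, RUNX1, CYB5A and GATA4 were also called without certain single arrays. In the block, members lower fell from 13 to 5 for mitosis, from 9 to 3 for DNA replication and from 8 to 4 for nucleolar genes, and members higher from 8 to 5 for the glucocorticoid response. Members lower also fell from 4 to 0 for progesterone synthesis, from 4 to 2 for antral granulosa genes and from 2 to 0 for the WNT list. For the circadian clock, members higher fell from 4 to 1, and further lists lost members too. NR5A2, FDXR, PDK4, MCM5, WDR43, LAMB1, PRKAR2B, SEMA3C and FZD1 lost their calls in the block and in no other fit (adjusted p 0.0531 to 0.103). With only probe sets above the median level, 14 nucleolar genes and 8 antral granulosa genes were lower, and with 16 added or an intensity trend 9 antral granulosa genes. The search of promoters for motifs was not run, since no promoter sequences were used here. The 26383 probe sets at or below the median level had a median SE of 0.63 and 0.614% were called, and those above it had a median SE of 0.18 and 6.1% called.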
